A study of Mus musculus with 9 samples.

Results

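Hepatokines are proteins that the liver releases into the blood and that act on other organs. The transcripts of 9 of them, Fgf21, Gdf15, Angptl4, Angptl6, Fetub, Ahsg, Lect2, Inhbe and Enho, were followed across 9 mouse livers. They were taken by gene symbol from a table of 24411 genes. All 9 passed the filter on low counts, which left 11199 genes for testing.

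The livers came from 3-month-old mice on a C57BL/6 background, with 3 livers in each of 3 genotypes, which the study describes as biological replicates. All mice carried Atg7flox/flox, so the controls (cont.) differed from wild type in having floxed alleles, and they had no Cre. Atg7-KO mice were Atg7flox/flox;Alb-Cre, in which the albumin promoter drives Cre. The study describes them as hepatocyte-specific knockouts of Atg7, a gene that autophagy requires. Whether the other liver cells kept Atg7 was not measured here. Atg7-KO;p62S351A mice carried in addition the p62 S351A knock-in on both alleles, which weakens the binding of p62 to KEAP1, the repressor of the transcription factor NRF2. For replicates 2 and 3 of this group the genotype entry names another residue on 1 allele, and the titles were followed. Poly(A) RNA of whole liver was sequenced, and fewer cells of a type and less RNA per cell cannot be told apart in such samples.

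The libraries held between 713835 and 15426566 counts, and each Atg7-KO;p62S351A library was smaller than every other library, so depth and the p62 mutation cannot be told apart. Atg7 was at 42.1 to 57.3 CPM (counts relative to the library total, scaled between libraries by TMM factors) in cont., 27.8 to 29.9 CPM in Atg7-KO and 21.7 to 24.7 CPM in Atg7-KO;p62S351A. In edgeR's quasi-likelihood test its log2 fold change was -0.74 in Atg7-KO (SE 0.19, adjusted p = 0.00757). Levels below are CPM on this scale. A count of 3 in a library, taken as the floor, corresponded to 0.267 to 1.89 CPM in the cont. livers, 0.691 to 1.36 CPM in Atg7-KO and 3.42 to 3.70 CPM in Atg7-KO;p62S351A. Adjusted p-values are Benjamini-Hochberg values over the 11199 genes, and a gene is called higher or lower at an adjusted p under 0.05 with a fold change above 1.5.

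The 9 proteins have separate roles. FGF21 and GDF15 are hormones of nutrient and cell stress: FGF21 acts through FGF receptors together with the co-receptor beta-Klotho and shapes lipid and glucose use, and GDF15 acts on the hindbrain receptor GFRAL and lowers food intake. Inhbe encodes the subunit of activin E, a TGF-beta family ligand made mainly by hepatocytes that restrains lipolysis in fat. ANGPTL4 inhibits lipoprotein lipase, and ANGPTL6 is a relative described as an angiopoietin-related growth factor. Ahsg (fetuin-A) and Fetub (fetuin-B) are cystatin-type plasma proteins, of which fetuin-A binds calcium phosphate and fetuin-B inhibits the protease ovastacin. LECT2 is a leukocyte chemotactic factor, and Enho encodes adropin, a peptide linked to glucose and lipid handling. Transcription of Fgf21 is known to respond to PPARα on fasting and to ATF4 on cell stress, and Gdf15 to p53 and to ATF4 with its partners.

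The comparison of Atg7-KO with cont. asked what loss of autophagy in hepatocytes did to these transcripts. Fgf21 and Gdf15 were higher in Atg7-KO. Inhbe, Angptl6, Fetub and Ahsg were lower, and Angptl4, Lect2 and Enho were not called. Thus 2 of 9 members were called higher, against 19.9% of all genes tested, and 4 lower, against 18.1%. The median log2 fold change of the members was -1.16, beside -0.03 over all genes. The libraries of the 2 genotypes did not overlap for the same 2 higher members (26.7% of all genes) and the same 4 lower members (24.9% of all genes).

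Atg7-KO;p62S351A livers were compared with both other genotypes, to ask what the p62 mutation changed on the autophagy-deficient background. Against cont., only Fgf21 was called higher among the 9 (15.6% of all genes tested were), and the same 4 members, Inhbe, Angptl6, Fetub and Ahsg, were called lower (13% of all genes). The median of the members was -1.01, beside -0.03 over all genes. The libraries did not overlap for 1 higher member (19.6% of all genes) and 3 lower members (18.4% of all genes). Both comparisons use the same 3 cont. livers, so they are not independent. Against Atg7-KO no member was called in either direction by edgeR, limma-voom or DESeq2 (which gave no adjusted p for Fgf21, Angptl6 and Enho), where 0.00893% of all genes tested, a single gene, was called lower and 0% higher by edgeR. At an unadjusted p under 0.05, Gdf15 was lower and Inhbe higher, against 3.22% and 3.38% of all genes. Fgf21 and Gdf15 did not overlap between these 2 genotypes, with all 3 Atg7-KO;p62S351A libraries below all 3 Atg7-KO libraries, as in 9.23% of all genes, and no member lay wholly above, as 7.67% of all genes did. For Fgf21 the gap was narrow, from 5.70 CPM on 5 counts in Atg7-KO;p62S351A to 5.91 CPM on 13 counts in Atg7-KO. In an F test over all 3 genotypes, 6 members differed (adjusted p from 0.000223 to 0.0230), as did 35.1% of all genes.

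**Figure D1:**
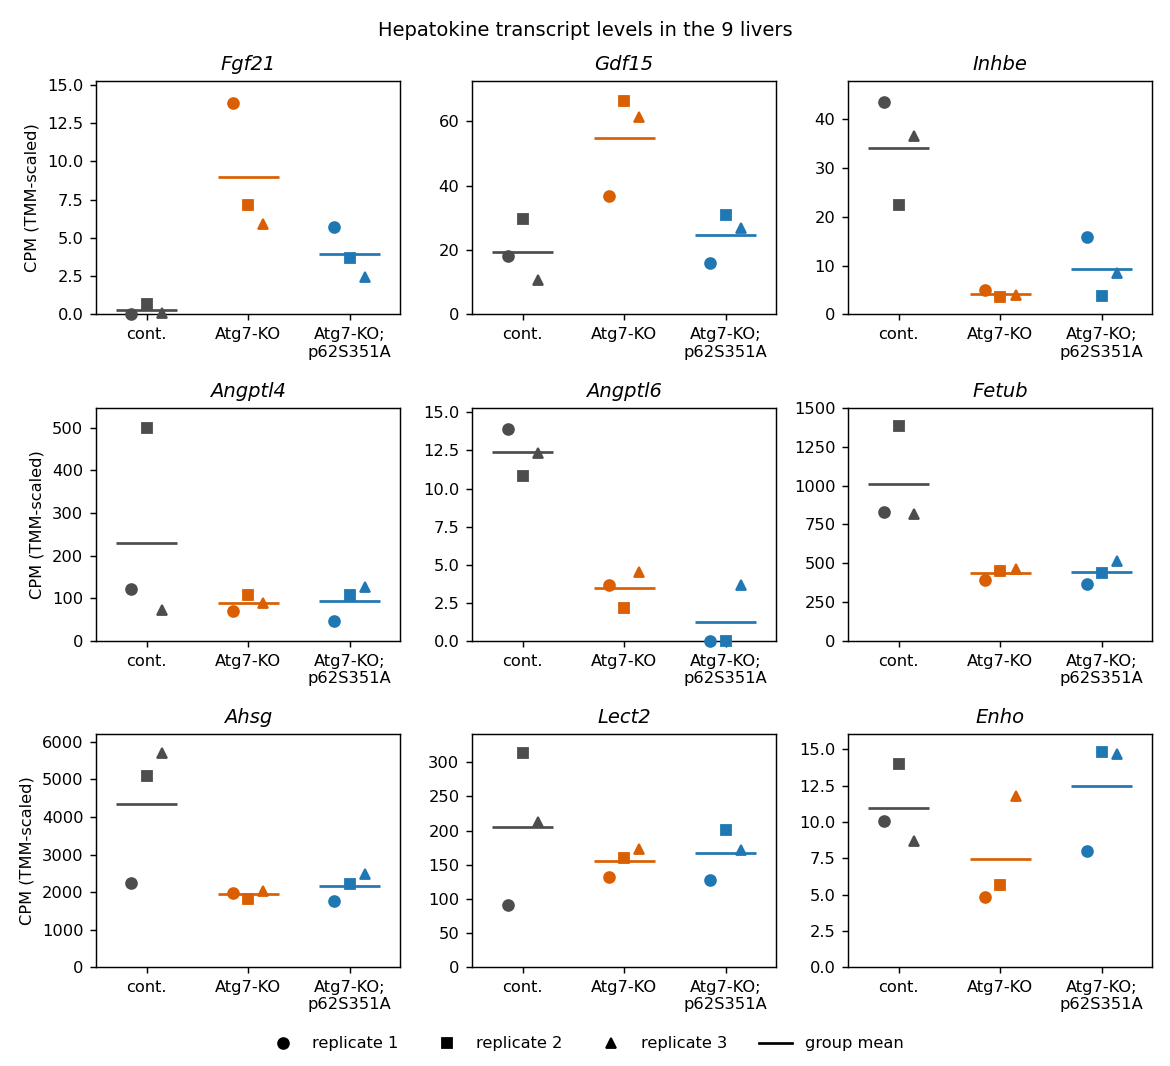
Each panel plots 1 hepatokine as CPM in each of the 9 livers on a linear axis from 0, with symbols for replicates and a line for the mean of each genotype (n = 3). Fgf21 was at or below 0.699 CPM in cont. and at 5.91 to 13.8 CPM in Atg7-KO, Inhbe was at 22.4 to 43.6 CPM in cont. livers and 3.56 to 5.07 CPM in those of Atg7-KO, and a single cont. library at 498 CPM sets the mean of Angptl4.

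Fgf21 (chr7:45613886-45615490, - strand, mm10) rose from near absence. It had 0, 2 and 1 counts in cont. replicates 1 to 3, which are 0, 0.699 and 0.0889 CPM. In Atg7-KO it had 60, 20 and 13 counts, or 13.8, 7.13 and 5.91 CPM. In Atg7-KO;p62S351A it had 5, 3 and 2 counts, or 5.70, 3.70 and 2.45 CPM. Every library of the 2 autophagy-deficient genotypes was above every cont. library. The log2 fold change was 5.25 in Atg7-KO against cont. (SE 0.70, adjusted p = 1.319e-04, edgeR) and 4.05 in Atg7-KO;p62S351A against cont. (SE 0.92, adjusted p = 0.0063), the latter from 2.99 to 5.08 over the 20 alternative settings that could test it (largest adjusted p 0.0483). Fgf21 passed the filter on low counts through the Atg7-KO libraries, where it was high. With the cont. and Atg7-KO;p62S351A libraries alone it was left out of the test. Because all cont. libraries were at the floor, the ratio of pooled counts per effective library size was also computed, with a 95% interval for counting error only. It was 52.0 (17.3 to 257) in Atg7-KO and 20.9 (5.38 to 118) in Atg7-KO;p62S351A. Between Atg7-KO;p62S351A and Atg7-KO the fitted log2 difference was -1.20 (95% interval -2.49 to 0.08, adjusted p = 0.777). The ratio of pooled counts for this pair was 0.401 (0.186 to 0.772, counting error only), and replicates 2 and 3 of Atg7-KO;p62S351A were at the floor.

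Of the 9 members, 7 had promoter windows in the RefSeq set for GRCm38.p6, which runs from 250 bases before to 50 bases after each annotated start, and these gave 9 windows. The windows were searched on both strands for the C/EBP-ATF response element bound by ATF4 (CARE, TGATGNAA), the core of the antioxidant response element bound by NRF2 (TGACNNNGC), the direct repeat bound by PPARα with RXR (PPRE, here 2 copies of AGGNCA with 1 base between them) and the E-box CACGTG. A match is a description of letters and not a shown binding site. The 250 bases before the Fgf21 start, chr7:45615491-45615740 on the - strand, are shown because Fgf21 rose most, with the CARE match (from position -139, on the other strand) and the E-box (from position -50) in capitals.
Fgf21: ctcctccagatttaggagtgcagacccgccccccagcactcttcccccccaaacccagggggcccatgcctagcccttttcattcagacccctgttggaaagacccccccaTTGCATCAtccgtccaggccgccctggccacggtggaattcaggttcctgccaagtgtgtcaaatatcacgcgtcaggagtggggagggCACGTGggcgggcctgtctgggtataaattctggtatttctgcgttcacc
The E-box was present in 7.15% and CARE letters in 3.97% of all 32851 windows.

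CARE letters were found in the windows of 2 members, Fgf21 and Inhbe, whose transcripts moved in opposite directions in both autophagy-deficient genotypes. The 30 bases around each match, Fgf21 at chr7:45615611-45615640 and Inhbe at chr10:127352011-127352040, both on the - strand, are given to compare them, with the matched letters in capitals.
Fgf21: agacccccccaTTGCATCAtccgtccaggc
Inhbe: catcctctttcTTGCATCAtgcatgtccac
The matched TTGCATCA was the same in both. The Inhbe match starts at position -181 from the RefSeq start, a position that lies inside the longer GENCODE gene, which begins at chr10:127354411.

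Gdf15 (chr8:70629393-70632456, - strand) was at 18.3, 29.7 and 10.7 CPM in cont. In Atg7-KO it was at 36.9, 66.3 and 61.3 CPM. It was at 16.0, 30.8 and 27.0 CPM in Atg7-KO;p62S351A, on 14, 25 and 22 counts. All Atg7-KO libraries were above all others, and Atg7-KO;p62S351A overlapped cont. The log2 fold change was 1.53 in Atg7-KO against cont. (SE 0.36, adjusted p = 0.00547, edgeR), a 2.88-fold rise. In Atg7-KO;p62S351A against cont. it was 0.37 (95% interval -0.54 to 1.28, adjusted p = 0.540). Without cont. replicate 3 this value was -0.02. The difference between Atg7-KO;p62S351A and Atg7-KO was -1.15 (SE 0.40, 95% interval -2.02 to -0.29), with an unadjusted p of 0.0129 and an adjusted p of 0.685 by edgeR. When genes with few counts were kept in the test, the adjusted p of this difference was 0.0385, the single setting of 23 in which a member was called between these 2 genotypes.

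The 250 bases before the upstream start of Gdf15, chr8:70632457-70632706 on the - strand, are shown because this window held PPRE letters (from position -55, in capitals), which 0.381% of all windows hold, and held no CARE letters.
Gdf15: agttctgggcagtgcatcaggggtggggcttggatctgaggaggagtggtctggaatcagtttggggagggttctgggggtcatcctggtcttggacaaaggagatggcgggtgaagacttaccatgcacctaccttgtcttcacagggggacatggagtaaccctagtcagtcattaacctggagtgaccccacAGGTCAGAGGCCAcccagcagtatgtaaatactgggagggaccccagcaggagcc
The window of the second Gdf15 start held an E-box from position -83. Antioxidant response element core letters, present in 12.4% of all windows, were found for Ahsg (from position -12) and for the second Fetub start (from position -110), and not in the windows of Fgf21, Gdf15, Angptl6, Inhbe or Lect2.

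Inhbe (chr10:127348857-127354411, - strand) had the largest decrease of the 9 in Atg7-KO. The cont. livers held 43.6, 22.4 and 36.6 CPM and the Atg7-KO livers 5.07, 3.56 and 4.09 CPM. In Atg7-KO;p62S351A it was at 16.0, 3.70 and 8.58 CPM, on 14, 3 and 7 counts. Both autophagy-deficient genotypes were below cont. in every library, and Atg7-KO;p62S351A replicates 1 and 3 stood above all Atg7-KO libraries. Its log2 fold change was -2.96 in Atg7-KO (SE 0.38, adjusted p = 9.631e-05, edgeR), a level 7.80-fold lower, and -1.83 in Atg7-KO;p62S351A (SE 0.41, adjusted p = 0.00598). The difference between the autophagy-deficient genotypes was 1.13 (95% interval 0.07 to 2.20, adjusted p = 0.744), and it was 0.50 to 1.78 over the 21 alternative settings that could test it, each with an adjusted p of 0.531 or more.

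Angptl6 (chr9:20873808-20879727, - strand) was low throughout. The cont. livers held 13.9, 10.8 and 12.4 CPM and the Atg7-KO livers 3.69, 2.14 and 4.54 CPM. In Atg7-KO;p62S351A it had 0, 0 and 3 counts, the last being 3.68 CPM. Cont. libraries were above all others, and the autophagy-deficient genotypes overlapped. The log2 fold change was -1.83 in Atg7-KO (SE 0.46, adjusted p = 0.00726, edgeR), 3.55-fold lower. In Atg7-KO;p62S351A all libraries were at the floor, and the ratio of pooled counts to cont. was 0.0979 (95% interval 0.0200 to 0.290, counting error only), with an edgeR adjusted p of 0.00547. The exons of Angptl6 share 265 bases with A230050P20Rik on the + strand, and the library kit does not mark strand, so reads there cannot be assigned to either gene.

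Angptl4 (chr17:33773750-33781830, - strand) was not called, and 1 library decided its size. It was at 121, 498 and 72.2 CPM in the cont. livers, at 70.5, 107 and 88.1 CPM in Atg7-KO and at 45.6, 108.5 and 127 CPM in Atg7-KO;p62S351A. Cont. replicate 2 lay far above all others, and the remaining 8 libraries overlapped. Its log2 fold change was -1.38 in Atg7-KO against cont. (SE 0.58, adjusted p = 0.0794, edgeR) and -1.30 in Atg7-KO;p62S351A (adjusted p = 0.122). Without cont. replicate 2 these were -0.12 and -0.04. Angptl4 was called lower in Atg7-KO in 4 of 23 settings, which were without cont. replicate 1 (-1.70, adjusted p = 0.0467), without cont. replicate 3 (-1.82, adjusted p = 0.0126), without a filter (-1.42, adjusted p = 0.000686) and with sex as a covariate (-1.41, adjusted p = 0.00792). In Atg7-KO;p62S351A it was called lower in 3 of 23, without cont. replicate 3 (-1.74, adjusted p = 0.0259), without a filter (-1.38, adjusted p = 0.00174) and with sex as a covariate (-1.51, adjusted p = 0.0101).

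The fetuin genes Ahsg (chr16:22891277-22899449) and Fetub (chr16:22918334-22939778) lie side by side on the + strand and fell by like amounts. Fetub was at 831, 1380 and 818 CPM in the cont. livers, at 393, 453 and 465 CPM in Atg7-KO and at 367, 438 and 517 CPM in Atg7-KO;p62S351A. All cont. libraries were above all others. Its log2 fold change was -1.21 in Atg7-KO (SE 0.26, adjusted p = 0.00322, edgeR) and -1.20 in Atg7-KO;p62S351A (SE 0.26, adjusted p = 0.00547). The difference between the autophagy-deficient genotypes was 0.01 with a 95% interval from -0.55 to 0.58. With libraries scaled by their total, both calls against cont. were lost (adjusted p = 0.0535 and 0.0550).

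Ahsg was at 2244, 5090 and 5717 CPM in the cont. livers, at 1991, 1828 and 2025 CPM in Atg7-KO and at 1765, 2211 and 2495 CPM in Atg7-KO;p62S351A. Cont. replicate 1 was the lowest of its genotype, less than 1.5-fold above the Atg7-KO libraries and inside the range of Atg7-KO;p62S351A. Ahsg had a log2 fold change of -1.16 in Atg7-KO (SE 0.33, adjusted p = 0.0153, edgeR) and -1.01 in Atg7-KO;p62S351A (SE 0.33, adjusted p = 0.0378). The Atg7-KO call was lost when any Atg7-KO library was left out (log2 fold change -1.20 to -1.12, adjusted p from 0.0503 to 0.0632) and with libraries scaled by their total (-0.60, adjusted p = 0.132). The Atg7-KO;p62S351A call was lost in 11 of 23 settings, with an adjusted p of 0.133 from the 6 compared libraries alone.

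Lect2 (chr13:56542464-56548502, - strand) and Enho (chr4:41638144-41640324, - strand) were not called in any comparison. Lect2 was at 90.9, 314 and 212 CPM in the cont. livers, at 132, 161 and 173 CPM in Atg7-KO and at 128, 201 and 172 CPM in Atg7-KO;p62S351A, so both autophagy-deficient genotypes lay inside the range of cont. Its log2 fold change in Atg7-KO was -0.41 (95% interval -1.19 to 0.36, adjusted p = 0.389, edgeR). It was called lower without cont. replicate 1 (-0.78, adjusted p = 0.0327), and scaling by library total turned its sign (0.13).

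Enho was at 10.1, 14.0 and 8.72 CPM in the cont. livers, at 4.84, 5.70 and 11.8 CPM in Atg7-KO and at 7.98, 14.8 and 14.7 CPM in Atg7-KO;p62S351A. The genotypes overlapped. For Enho the log2 fold change was -0.59 in Atg7-KO (95% interval -1.41 to 0.24, adjusted p = 0.244, edgeR) and 0.21 in Atg7-KO;p62S351A (adjusted p = 0.753). The intervals leave room for changes of over 1.5-fold.

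**Figure D2:**
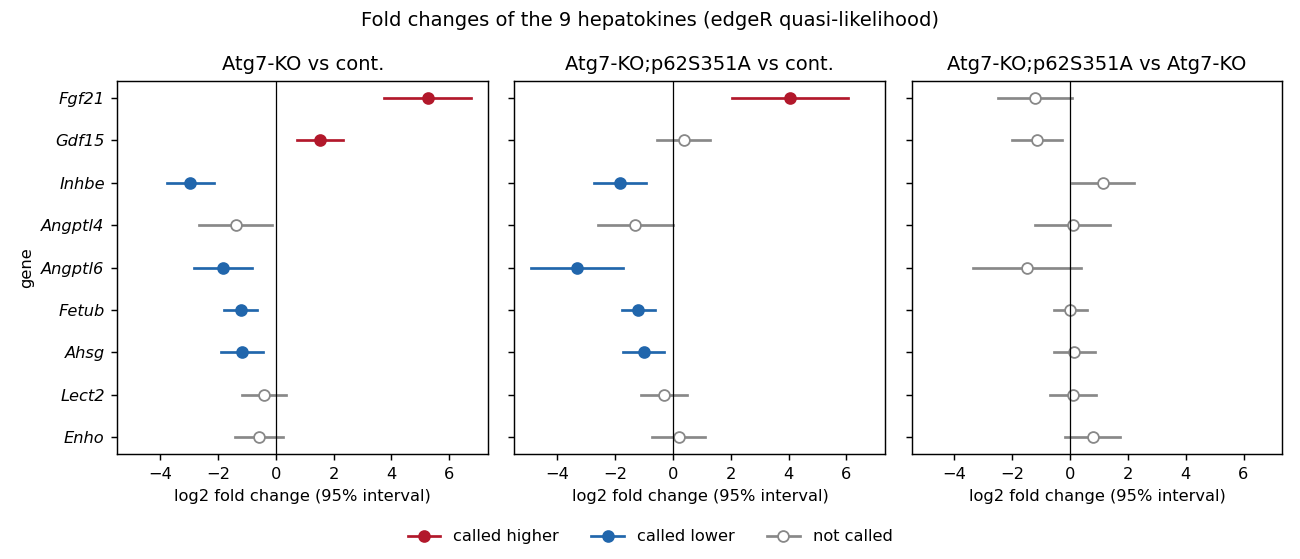
Points give the edgeR log2 fold change of each hepatokine in the 3 comparisons and lines the 95% interval; filled symbols are called and open ones are not. In Atg7-KO against cont. Fgf21 lies at 5.25, Gdf15 at 1.53 and Inhbe at -2.96, and no member is called between the autophagy-deficient genotypes.

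Divided by exon length, levels can be compared between members. In cont. Ahsg was highest, at 1980 ± 842.5 CPM per kb (SD, n = 3), followed by Fetub at 515 ± 164 and Lect2 at 224 ± 122 CPM per kb. Angptl4 followed at 65.1 ± 65.8 CPM per kb and overlapped Lect2. Gdf15, Enho, Angptl6 and Inhbe, at means of 10.6, 8.62, 7.82 and 6.43 CPM per kb, overlapped one another, and Fgf21 was last at 0.276 ± 0.400 CPM per kb. The length used for Inhbe, 5319 bases of exon in GENCODE M21, includes exon bases before the RefSeq start and lowers its value per kb.

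The fetuins and Lect2 kept the first 3 places in every genotype, and the order changed below them. In Atg7-KO, Gdf15 at 29.6 ± 8.51 CPM per kb stood level with Angptl4 at 25.0 ± 5.10, and Fgf21 at 9.41 ± 4.48 overlapped Enho at 5.87 ± 3.00 CPM per kb. Angptl6 at 2.18 ± 0.770 and Inhbe at 0.797 ± 0.143 CPM per kb were the last 2 and did not overlap, which depends on the exon length used for Inhbe. In Atg7-KO;p62S351A, Fgf21 at 4.15 ± 1.73 CPM per kb was below Enho at 9.85 ± 3.08 without overlap, and Inhbe at 1.77 ± 1.16 and Angptl6 at 0.775 ± 1.34 overlapped.

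**Figure D3:**
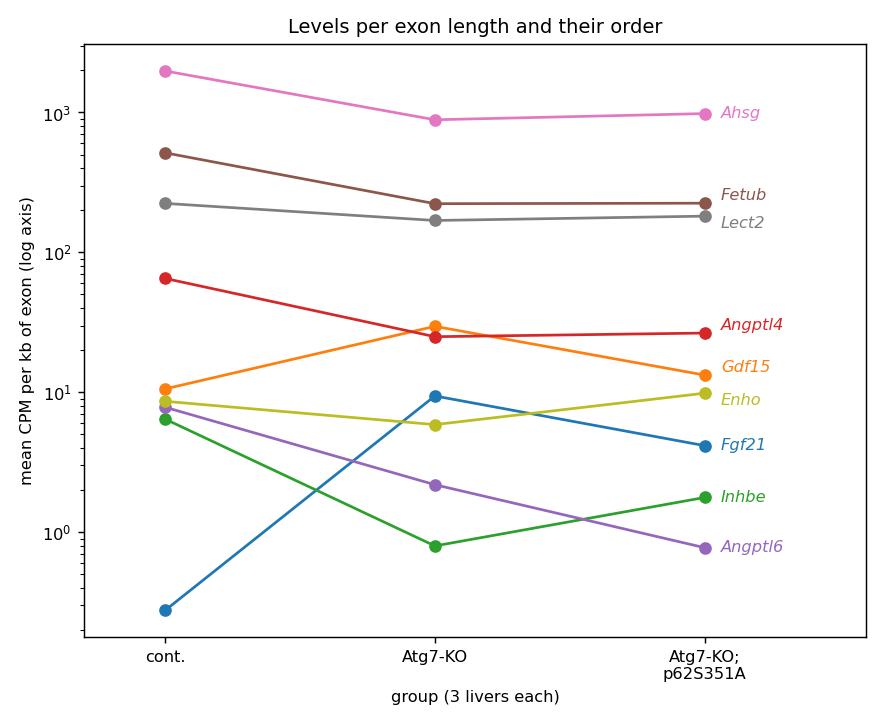
Lines join the mean CPM per kb of exon of each hepatokine (log axis) in the 3 genotypes, with 3 livers each; spreads are given in the text. Fgf21 moves from 0.276 CPM per kb in cont., the lowest, to 9.41 CPM per kb in Atg7-KO, and Inhbe from 6.43 to 0.797 CPM per kb.

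The genes on which these hormones act, and their relatives, were read from the same fit. The count called in each list stands beside the share of all genes called, which was 19.9% higher and 18.1% lower in Atg7-KO, and 15.6% higher and 13% lower in Atg7-KO;p62S351A, and the difference of a list from all genes was not tested. Among 12 receptor and co-receptor genes that passed the filter, Atg7-KO livers had 2 called higher and 1 called lower, no larger a share than among all genes. Fgfr1 was at 6.99 to 15.8 CPM in cont. and at 44.2 to 67.3 CPM after loss of Atg7, a log2 difference of 2.53 (SE 0.29, adjusted p = 4.431e-05, edgeR), and Fgfr3 rose by 0.89. Fgfr4, the main FGF receptor of hepatocytes, had a log2 fold change of -0.79 (adjusted p = 0.00683). Klb, which encodes beta-Klotho, was not called (-0.59, adjusted p = 0.136). In Atg7-KO;p62S351A Fgfr1 was at 2.65 and Fgfr3 at 1.24, both called, and none was lower.

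Of 7 genes for enzymes and binding partners, 4 rose and 2 fell past the thresholds in Atg7-KO (19.9% and 18.1% of all genes). Lpl, the lipase that ANGPTL4 inhibits, was at 47.2 to 83.4 CPM in cont. and in Atg7-KO at 878 to 1040 CPM, a log2 difference of 3.82 (SE 0.34, adjusted p = 8.598e-06, edgeR). The activin-binding antagonists Fstl3 (0 to 4 counts in a cont. library) and Fst rose by 4.80 and 2.10, and the follistatin-like Fstl1 by 2.85. Hepatic lipase, Lipc, had a value of -1.95 and the lipase maturation factor Lmf1 of -0.67. In Atg7-KO;p62S351A the same 4 were called higher, with Lpl at 3.75 and Fstl3 at 4.18, and Lipc was lower (-1.24).

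Among 11 family relatives, 2 rose and 4 fell past the thresholds in Atg7-KO (19.9% and 18.1% of all genes). The inhibin alpha gene Inha was at a log2 fold change of 2.37. Inhbc, which encodes the activin C subunit and is a close relative of Inhbe, was at -0.98 (SE 0.27, adjusted p = 0.0134, edgeR). Of the genes of the same cystatin-type family as the fetuins, the kininogen and histidine-rich glycoprotein genes were lower, with Kng1 at -1.27, Hrg at -1.09 and Kng2 at -1.05, and the cystatin C gene Cst3 was not called (0.15, adjusted p = 0.678). Angptl2 rose by 1.28. In Atg7-KO;p62S351A 1 relative was called higher (Inha, 2.14) and 3 lower, these being Kng1, Hrg and Kng2, and Inhbc was at -0.46 (adjusted p = 0.239).

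Of 18 other genes for secreted regulators of the liver, 3 rose and 10 fell in Atg7-KO (19.9% and 18.1% of all genes). Gpnmb had 0 counts in every cont. library and 14 to 16 counts in the Atg7-KO libraries (adjusted p = 4.12e-04, edgeR). Lcn2 was higher by 4.79 (adjusted p = 3.53e-05) and Igfbp1 by 1.58. Igfbp2 was at -2.29, and hepcidin (Hamp) at -1.86, Igf1 at -1.85 and thrombopoietin (Thpo) at -1.55. In Atg7-KO;p62S351A 3 rose and 8 fell. Igf1 was then at -0.83 (adjusted p = 0.0744), and its difference from Atg7-KO was 1.02 (adjusted p = 0.623).

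Of 21 genes for factors that act on hepatokine genes, 1 rose and 7 fell in Atg7-KO (19.9% and 18.1% of all genes), and 1 rose and 6 fell in Atg7-KO;p62S351A (15.6% and 13%). Atf3, a stress-induced factor, was at 1.75 to 2.31 CPM in cont. and in Atg7-KO at 26.4 to 34.9 CPM, a log2 difference of 3.85 (SE 0.41, adjusted p = 2.897e-05, edgeR). The carbohydrate-sensing factor gene Mlxipl was at -2.18, the bile acid receptor gene Nr1h4 at -1.61 and Atf5 at -1.57. Ppara was at 125 to 244 CPM in cont. and in Atg7-KO at 63.1 to 102 CPM, a log2 difference of -1.16 (adjusted p = 0.00640). Atf4 itself was not called (-0.63, adjusted p = 0.0532), nor were Ddit3 (0.46, adjusted p = 0.231) or Trp53 (0.17, adjusted p = 0.653).

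Targets of the same factors differed from list to list. Of 12 PPARα targets, 0 rose and 8 fell in Atg7-KO, where 18.1% of all genes fell, with a median log2 difference of -1.45. Cyp4a14 and Cyp4a10, fatty acid hydroxylases, were at -5.94 and -4.44, Acot1 at -2.98 and the fatty acid binding protein gene Fabp1 at -2.45. Their summed level was 6327, 11040 and 13690 CPM in the cont. livers, 2328, 2739 and 2791 CPM in Atg7-KO and 2362, 2696 and 4595 CPM in Atg7-KO;p62S351A, where 7 were called lower. Cpt1a, Pdk4, Plin2 and Vnn1 were not called in either genotype, with Plin2 at -0.15 and Vnn1 at 0.63 in Atg7-KO. The mice had free access to food.

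Of 12 ATF4 targets, 6 passed the filter, and 2 rose and 0 fell in Atg7-KO, where 19.9% of all genes rose. Slc7a11, the cystine transporter and also a target of NRF2, had 3 counts in the cont. libraries together and was at 132 to 225 CPM in Atg7-KO and 7.35 to 118 CPM in Atg7-KO;p62S351A. Nupr1 was higher by 2.99 (adjusted p = 4.32e-04, edgeR). The remaining 4 were not called. Of 10 p53 targets, 7 rose and 0 fell in Atg7-KO, where 19.9% of all genes rose, with a median of 0.93. Eda2r had 1 to 3 counts in the cont. libraries and 16 to 23 in Atg7-KO, Phlda3 was at 3.70, the cell cycle inhibitor gene Cdkn1a at 2.16 and Ccng1 at 1.33. In Atg7-KO;p62S351A 4 of the 10 were called higher (15.6% of all genes), with a median of 0.54. The medians of these lists stand beside -0.03 for all genes in both comparisons against cont.

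**Figure D4:**
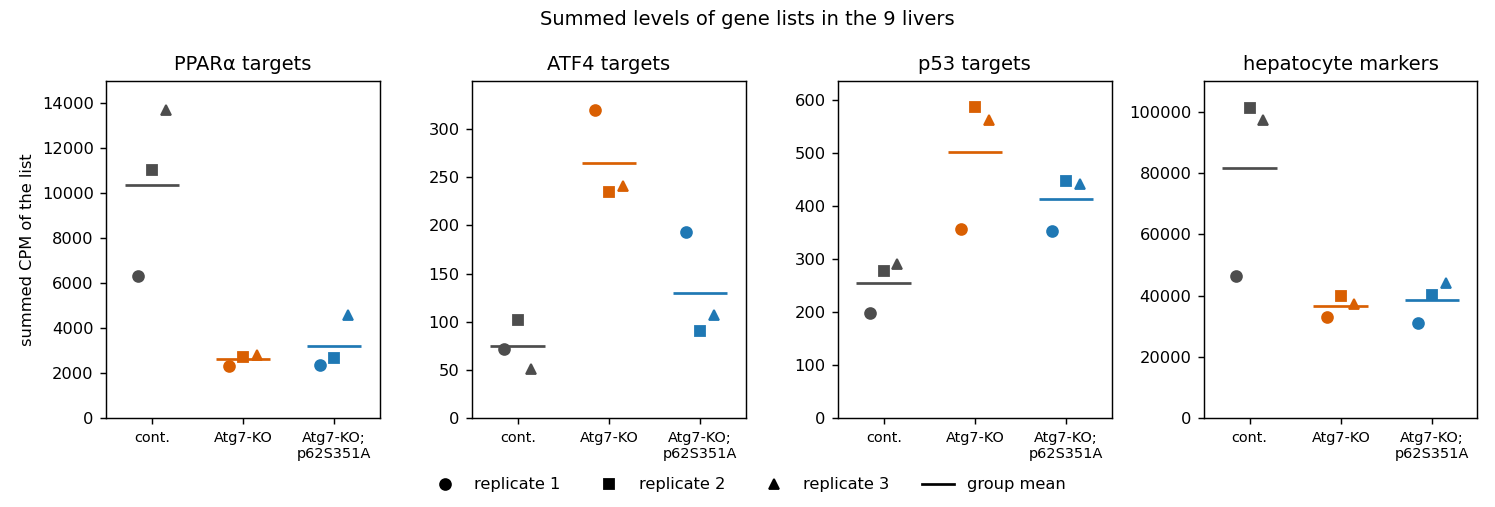
Panels give the summed CPM of PPARα targets, ATF4 targets, p53 targets and hepatocyte markers in each of the 9 livers on linear axes from 0, with symbols for replicates and a line for the mean of each genotype. PPARα targets lie at 6327 to 13690 CPM in cont. and at 2328 to 4595 CPM in the autophagy-deficient livers, and p53 targets at 198 to 291 CPM and 354 to 586 CPM. Single genes weigh heavily in 2 of the sums. In Atg7-KO, Slc7a11 alone is at 132 to 225 CPM where the ATF4 targets sum to 234.5 to 319.5 CPM. Alb is at 21200 to 27110 CPM there, where the hepatocyte markers sum to 33070 to 39860 CPM.

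The makeup of the RNA moved with these results. Of 7 hepatocyte markers, 0 rose and 5 fell in Atg7-KO, and their summed level was 46300 to 101300 CPM in the cont. livers, 33070 to 39860 CPM in Atg7-KO and 31240 to 44230 CPM in Atg7-KO;p62S351A. Tat was at a log2 difference of -3.39, Cps1 at -1.91, Ttr at -1.49, Apoa1 at -1.22 and Alb at -1.17, and the 2 that were not called were Hnf4a at 0.38 and Apob at 0.22. Of 6 ductular cell markers, 6 were called higher (Spp1 by 4.37), with sums of 46.9 to 82.7 CPM in the cont. livers, 818 to 1202 CPM in Atg7-KO and 718 to 1189 CPM in Atg7-KO;p62S351A. Of 7 stellate cell and matrix markers, 6 were called higher (259 to 520, 1224 to 1682 and 1153 to 1629 CPM). Of 9 macrophage markers, 5 were called higher and 1 lower (208 to 318, 289 to 391 and 249 to 288 CPM). Of 6 endothelial markers, 1 was called higher and 2 lower (101 to 192, 132 to 158 and 111 to 151 CPM). Of 5 erythroid markers, 2 were tested and 1 was called lower (117 to 248, 9.62 to 31.6 and 24.5 to 41.9 CPM). Of the erythroid markers, Hba-a1 was at 0 counts in every library, and no marker of the other lists named so far was at 0 throughout a genotype. The part of these cell types in the hepatokine results was not tested. Markers of adipocytes summed to at most 5.05 CPM and those of pancreatic acinar cells, which also express Fgf21, to at most 6.13 CPM in any library, and none passed the filter.

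The genes whose profiles over the 9 libraries were nearest to Fgf21 and Gdf15 were found by the root mean square difference of centred log2 CPM. For Fgf21 these were Msantd3 (0.363), Haus8 (0.389) and Itga3 (0.396). Msantd3 was at 0 to 0.350 CPM in the cont. livers, 9.995 to 16.1 CPM in Atg7-KO and 3.68 to 7.99 CPM in Atg7-KO;p62S351A, and Itga3, which encodes an integrin subunit, was at 9.52 to 13.3, 101 to 125 and 47.8 to 70.3 CPM. With a prior count of 0.5 in place of 2, Msantd3 remained nearest and the other two became Cx3cl1 and Cenpe. For Gdf15 they were Zfp429 (0.255), Adamtsl4 (0.324) and Klhl13 (0.342), the same 3 genes with either prior count. Adamtsl4 was at 7.12 to 14.3 CPM in the cont. livers, 28.6 to 32.1 CPM in Atg7-KO and 11.4 to 28.4 CPM in Atg7-KO;p62S351A.

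The direction of each of the 6 members called in Atg7-KO held under every alternative setting that could test it. Fgf21 ranged from 4.20 to 6.29, Gdf15 from 1.14 to 2.04, Inhbe from -3.53 to -2.42 and Angptl6 from -2.04 to -1.28, and all of these were called. Fetub lost its call in 1 setting, with total library size (-0.68), and Ahsg in 6.

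**Figure D5:**
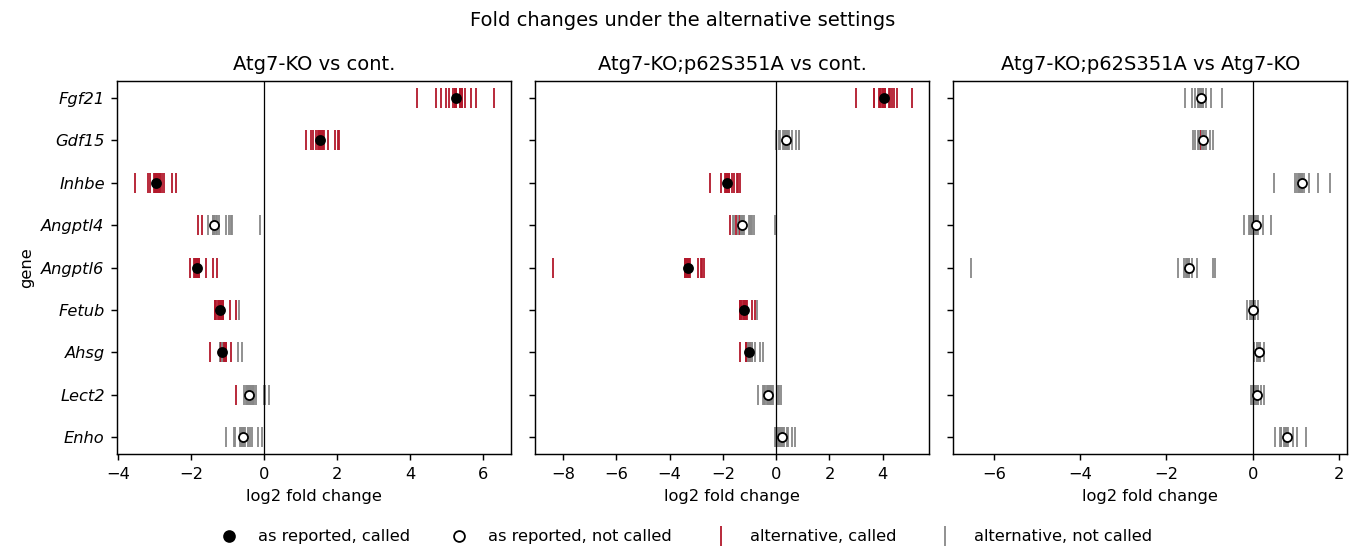
Each mark is the log2 fold change of a hepatokine under 1 alternative setting (red where called, grey where not), and circles are the reported values (filled where called); the panels have separate horizontal axes. In Atg7-KO against cont. all marks of Fgf21 lie between 4.20 and 6.29, and those of Angptl4 between -1.82 and -0.12.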

How the data were processed

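Poly(A) RNA of 9 livers was sequenced as 75-base single-end reads from unstranded libraries. The authors trimmed the reads with Trim Galore, aligned them to mm10 with STAR and deposited RSEM expected counts (estimated counts per gene, not normalized); versions, annotation and strand setting are not given in the sources used here. Between 4.40% and 7.75% of values in a library were not whole, and all were rounded. Libraries were grouped by title. One model with a term per genotype was fitted to all 9 libraries with edgeR 4.0.16 (R 4.3.3), using TMM factors, filterByExpr (minimum count 10, total 15) and quasi-likelihood tests, and was tested on simulated data. The model shares 1 spread per gene among the genotypes. Mean squared differences between libraries were 41.2 to 103 times counting error in cont. They were 2.22 to 6.27 times in Atg7-KO and 4.2 to 7.68 times in Atg7-KO;p62S351A. These values also grow with depth, and what the unequal spread does to the SEs was not tested. The study's own thresholds were kept. Alternatives included DESeq2 1.42.0 and limma-voom (limma 3.58.1). SEs are those implied by the test. Deviations from the group means correlated across genes between same-numbered samples of cont. and Atg7-KO;p62S351A (r = 0.235, 0.175 and 0.16 for replicates 1, 2 and 3). Every replicate 1 was male and every replicate 2 female by Xist and Y-linked genes, so these values do not show that mice were paired. The reported tests hold no pairing term, and a term per replicate number (the replicate block) was fitted as an alternative. Intervals of log2 fold changes are from edgeR's SEs and include the spread between livers, whereas those of pooled count ratios, and the floors, cover counting error only.

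The members and all gene lists were chosen with earlier results of these data known. By the rule for named genes, the text gives all 9 members, Atg7, at most 4 called genes per list with the largest change in Atg7-KO, and the 3 nearest profiles. Beyond this rule, Klb, Lipc, Lmf1, Inhbc, Kng2, Cst3, Igfbp1, Igf1, Thpo, Ppara, Atf4, Ddit3, Trp53, Cpt1a, Pdk4, Plin2, Vnn1, Alb, Hnf4a, Apob and Hba-a1 were named after their values were seen. Positions are from GENCODE M21, in which 23376 of the table's 24411 symbols were found.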

Additional observations from a re-analysis of the deposited data

How the results depend on the processing

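Of 596 values of single members under alternative settings, 547 kept their direction and their side of the threshold, 19 lost a call, 9 gained one and 21 changed sign, and none of those that changed sign was called. Requiring at least 10 counts in every library left 5 members in the test and took the calls to 3 in Atg7-KO against cont., 2 in Atg7-KO;p62S351A against cont. and 3 over all genotypes. In Atg7-KO;p62S351A against cont., where 5 were called, 3 were called with total library size, 3 with counts thinned to the smallest library and 3 with the 6 compared libraries alone. Thinning left Fgf21, Angptl6 and Enho out of the test, and the 6 libraries alone left out Fgf21. Without a filter, 1 member (Gdf15) was called between the autophagy-deficient genotypes. With total library size the all-gene median log2 change went to 0.51 in Atg7-KO and 0.46 in Atg7-KO;p62S351A, and leaving out the 20 genes with most counts moved it to 0.40 and 0.36. Under these scalings Lect2 was at 0.13 and 0.0225 in Atg7-KO and at 0.18 and 0.0850 in Atg7-KO;p62S351A against cont., and Fetub at -0.0348 and -0.0254 between the autophagy-deficient genotypes. That last value was -0.0427 without a filter and -0.00077 with at least 10 counts in every library. Angptl4 in the same comparison was at -0.0277 with limma-voom and -0.095 with sex (read from Xist and Y-linked genes) as a covariate, which also put Enho at -0.0528 in Atg7-KO;p62S351A against cont. The cause was not tested.

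Leaving out 1 library at a time gave ranges that crossed 0. Against cont., Lect2 ran from -0.78 to 0.00554 in Atg7-KO and from -0.68 to 0.10 in Atg7-KO;p62S351A. Gdf15 in the latter comparison ran from -0.0206 to 0.86. Between the autophagy-deficient genotypes Angptl4 ran from -0.21 to 0.42, Fetub from -0.12 to 0.12, and Lect2 from -0.0497 to 0.26.

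With the replicate block, 6, 5 and 0 members were called in the 3 comparisons, as without it, and the block changed the call of no member. Deviations of same-numbered samples correlated across genes with r from -0.0415 to 0.248 between cont. and Atg7-KO and from 0.0738 to 0.306 between the autophagy-deficient genotypes. Outside this block no comparison was tested as paired. The count of all genes called between the autophagy-deficient genotypes, 1 by edgeR, was 39 with DESeq2, 98 without a filter, 10 with the 6 libraries alone and 0 with limma-voom. The Atg7-KO;p62S351A libraries, with at most 792366 counts, limit Fgf21, Angptl6, Inhbe and Enho to 14 counts or fewer per library.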

Other observations

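Hepatokine levels were also set beside the sex of the livers, which was read from Xist and Y-linked genes and is not in the labels. There were 2 male and 1 female livers in cont., and 1 male and 2 female livers in each autophagy-deficient genotype, so that within each genotype 1 sex was a single liver, and every replicate 1 was male and every replicate 2 female. For Gdf15, Angptl4, Fetub, Lect2 and Enho, each female library was above each male library in all 3 genotypes, as in 5.96% of all genes tested. Inhbe, the activin E subunit, had the opposite order in all 3 genotypes, as in 4.69% of all genes. Angptl4 was at 498 CPM in the female cont. liver and at 121 and 72.2 CPM in the males, at 107 and 88.1 CPM in the female Atg7-KO livers and 70.5 CPM in the male, and at 108.5 and 127 CPM in the female Atg7-KO;p62S351A livers and 45.6 CPM in the male.

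A sex term was fitted as one of the alternatives. None of the 9 members passed edgeR's adjusted p for it, and 0.348% of all genes did. At an unadjusted p under 0.05, which 6.79% of all genes reached, were 6 members, the same as those ordered by sex above: Gdf15 (log2 difference of female minus male 0.93, adjusted p = 0.112), Angptl4 (1.42, adjusted p = 0.102), Fetub (0.45), Lect2 (0.64), Enho (0.74) and Inhbe (-0.82, adjusted p = 0.405). With sex in the model, Gdf15 remained higher in Atg7-KO against cont. (1.28, adjusted p = 0.00103, edgeR), and Angptl4 was called lower (-1.41, adjusted p = 0.00792).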
